A study of Mus musculus with 15 samples.

Results

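Transcript levels in mouse mammary epithelial cells that had lost both p53 and Rb were set against those in wild type cells. The arrays of this comparison were picked by their labels, 6 of the 15 arrays of the series, 3 labelled p53-, Rb- (here p53- Rb-) and 3 labelled WT. The 3 arrays of cells without p53 but with Rb (p53-) are given beside them, and the 6 arrays of p53- Myc+ and p53- Rb- Myc+ cells, which carried a MYC retrovirus, entered the choice of probe sets, the principal components and the common estimate of spread. Both p53- Rb- and p53- cells had their genes removed by Cre recombinase from an adenovirus, and WT cells carried neither deletion. All cells came from female mice 8 weeks of age. They shared a medium with horse serum, EGF, insulin, cholera toxin and hydrocortisone, and RNA was taken while they proliferated. The labels do not name the promoter that drove Cre, and do not say whether WT cells received a control virus, so an effect of the virus or of Cre cannot be told apart from one of the deletions. Nor do they say whether samples of a group came from separate mice or cultures. Each p-value therefore sets a difference of group means against a spread among samples, pooled over all 15 arrays, that may be technical only.

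The p53 protein activates genes that halt the cell cycle, repair DNA or trigger cell death when a cell is damaged. Rb, encoded by Rb1, binds E2F transcription factors and keeps genes for DNA replication silent until cyclin-dependent kinases (CDKs) phosphorylate it, and its relatives p107 and p130 do so within the DREAM complex, which also holds mitosis genes down in resting cells. In the mammary gland, luminal cells line the ducts and make milk, and basal cells around them contract.

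Each value below is the intensity of 1 probe set on a linear scale, as deposited. A change is the log2 fold change of intensity plus 16, p53- Rb- minus WT unless other groups are named, ± its SE, a scale that understates the change of dim genes. A gene passed where limma gave a p under 0.05 after Benjamini-Hochberg adjustment over 19938 genes. Rose and fell are used of genes that passed. In p53- Rb- cells 2153 genes rose and 748 fell, against WT cells, which was 10.8% and 3.75% of the genes and 14.6% in all. Of these, 301 rose and 149 fell at least 2-fold. Without p53- Rb- replicate 2 the total was 1696, without p53- Rb- replicate 1 it was 1736 and without WT replicate 2 it was 1702. The median change of all genes was 0.05. The groups did not overlap for 31.3% of genes. Risers made up 74.2% of the calls, 65% after each array was centred on its median and 58.8% after quantile normalization. Counts for the gene lists below are to be read beside the 10.8% of all genes that rose and the 3.75% that fell.

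Array medians ran from 43 to 45.6 in p53- Rb- cells, from 49.6 to 54.9 in p53- cells and from 41.3 to 47.1 in WT cells. Across genes, p53- Rb- arrays correlated with WT arrays at r between 0.936 and 0.957, and with each other at r between 0.974 and 0.989. On principal component 2 (11.2% of the variance of the 15 arrays), p53- Rb- replicates 1, 2 and 3 lay at 6.48, -3.87 and 28.7. The p53- arrays lay between -52.4 and -28.7 and the WT arrays between 21.8 and 24.4. Replicate 3 of p53- Rb- thus stood apart from the other two on this axis, and without it 2621 genes passed against WT. Between p53- Rb- and p53- cells 19.8% of genes passed (3949), with 9.36% higher and 10.4% lower in p53- Rb- cells. Which direction held more calls depended on the setting. Higher genes made up 47.3% of these calls, but 55.9% after each array was centred on its median and 50.5% after quantile normalization. Among genes at or above the median level they made up 58.4%. The total was 2096 without p53- Rb- replicate 3, 2478 without p53- replicate 1 and 2128 without p53- replicate 3. This contrast is the test of whether a change from WT differed between the double and the single deletion. Between p53- and WT cells 29% passed (5777), with 19.3% that rose and 9.71% that fell. Risers made up 66.5% of these calls, but 52.6% after each array was centred on its median and 51.6% after quantile normalization. The total was 3467 without p53- replicate 3. The comparisons of p53- Rb- and of p53- cells with WT share the WT arrays, so their values are given side by side only.

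Rb1 was lower in p53- Rb- than in WT arrays, but over all groups its signal did not follow the Rb label. Rb1 read 52.7, 55.3 and 64.2 in p53- Rb- arrays, against 86.5, 88.1 and 104 in WT arrays. The groups did not overlap, with each p53- Rb- array below each WT array. The change was -0.57 ± 0.16 (adjusted p = 0.0227). Its adjusted p was 0.0946 without p53- Rb- replicate 1, 0.0787 without p53- Rb- replicate 2 and 0.0642 without WT replicate 3. In p53- cells, whose label leaves Rb intact, Rb1 read 147, 181 and 157, above every p53- Rb- and WT array, and the change of p53- Rb- against p53- was -1.27 ± 0.16 (adjusted p = 1.65e-05). In p53- Myc+ arrays, whose label also leaves Rb intact, it read 48, 26.8 and 34.5, below every p53- Rb- array, and in p53- Rb- Myc+ arrays 20, 18.3 and 17.9. Which part of Rb1 the probes cover is not given in the sources used here, so this probe set does not check the deletion. The p53 gene Trp53 was not analysed here. Myc, the transcription factor gene that other groups of the series carried on a retrovirus, read 811, 779 and 978 in p53- Rb- arrays and 940.1, 878 and 846 in WT arrays and did not pass (-0.06 ± 0.17, adjusted p = 0.867).

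The pocket protein and E2F genes, which encode Rb, its relatives and the factors they bind, rose in 8 of 18 and fell in 1, Rb1, with a median change of 0.45. E2f7, an atypical E2F that represses S-phase genes and is itself an E2F target, showed the smallest p among them. E2f7 stood at 320.2, 311 and 326 in p53- Rb- arrays, against 157, 185 and 171 in WT arrays. Each p53- Rb- array lay above each WT array. Its log2 fold change was 0.85 ± 0.15 (adjusted p = 0.000562). Its partner E2f8, also atypical, rose by 0.65 ± 0.15 (adjusted p = 0.00543). Tfdp1, a DP subunit with which typical E2F factors bind DNA, rose by 0.63 ± 0.15 (adjusted p = 0.00746). Lin54, the DNA-binding subunit of DREAM, rose by 0.77 ± 0.18 (adjusted p = 0.00694). The other 4 risers passed by less. Rbl1, which encodes p107, changed by 0.54 ± 0.16 (adjusted p = 0.0238), and Mybl2, the B-MYB gene, by 0.60 ± 0.18 (adjusted p = 0.0296). E2f6 changed by 0.47 ± 0.15 (adjusted p = 0.0393) and the activator E2f2 by 0.57 ± 0.19 (adjusted p = 0.0441). E2f2 lost its call in 12 of 16 alternatives, Mybl2 in 9 of 17, E2f6 in 8 of 17 and Rbl1 in 5 of 17. The number of the 18 genes that rose was 4 without p53- Rb- replicate 1 or 2 and 5 without WT replicate 1 or 2. The activator E2f1 did not pass. E2f1 intensity was 334, 326 and 364 in p53- Rb- arrays and 220.2, 221 and 363 in WT arrays. Its groups overlapped, because WT replicate 3 read as high as the p53- Rb- arrays. Neither did E2f3 (0.42 ± 0.18, adjusted p = 0.119), E2f4 (-0.04 ± 0.19, adjusted p = 0.919) or E2f5 (0.53 ± 0.21, adjusted p = 0.0926). The p130 gene Rbl2 (0.15 ± 0.18, adjusted p = 0.64) and Tfdp2, Lin9, Lin37 and Lin52 (adjusted p from 0.132 to 0.99) did not pass either. Of these 18 genes, Rb1 alone was lower in p53- Rb- than in p53- cells at the threshold, and Rbl2 alone was higher (0.52 ± 0.18, adjusted p = 0.0489).

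CDK inhibitor genes rose in 5 of 7, fell in 0 and had a median change of 0.68. Cdkn2a, which encodes p16INK4a and ARF, changed most. Cdkn2a read 165, 153 and 189 in p53- Rb- arrays, against 83.4, 59.8 and 47 in WT arrays. There was no overlap, and p53- Rb- arrays lay above WT arrays. This gave a log2 fold change of 1.24 ± 0.19 (adjusted p = 0.000115). It was as high in p53- cells at 152, 169 and 148, and p53- Rb- did not differ from p53- cells at the threshold (0.10 ± 0.19, adjusted p = 0.746). Cdkn2d, the p19INK4d gene, was 328, 307 and 233 in p53- Rb- arrays and 108, 131 and 158 in WT arrays (1.04 ± 0.18, adjusted p = 0.000565). Unlike Cdkn2a, the p18INK4c gene Cdkn2c was higher in p53- Rb- than in p53- cells at the threshold. Cdkn2c stood at 120, 138 and 160 in p53- Rb- arrays, against 85.5, 69.2 and 87.7 in WT arrays. The p53- arrays read 76, 70.9 and 87.4, and the change was 0.68 ± 0.17 against WT (adjusted p = 0.0078) and 0.72 ± 0.17 against p53- cells (adjusted p = 0.00375). Cdkn1c, the p57 gene, rose by 0.74 ± 0.17 (adjusted p = 0.00455) and the CDK phosphatase gene Cdkn3 by 0.61 ± 0.16 (adjusted p = 0.0111, or 0.0772 without WT replicate 2). Cdkn1b (p27) and Cdkn2b (p15) overlapped between the groups and did not pass (adjusted p = 0.368 and 0.503). Of the 7 genes, 3 were higher and 0 lower in p53- Rb- than in p53- cells, where 9.36% and 10.4% of all genes were. Cdkn1a (p21) was not analysed here.

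Among 10 genes of G1 cyclins, their kinases and Cdc25a, 2 rose and 0 fell (20%, against 14.6% of all genes), with a median change of 0.26. Ccna2, the cyclin A gene of S and G2 phase, read 719, 771 and 748 in p53- Rb- arrays and 493, 418 and 414 in WT arrays, with no overlap (0.74 ± 0.15, adjusted p = 0.00166). Ccne2, a cyclin E gene, passed narrowly (0.59 ± 0.20, adjusted p = 0.0499) and lost its call in 11 of 17 alternatives, among them the loss of p53- Rb- replicate 1 or 2 or of WT replicate 2 or 3 (adjusted p from 0.106 to 0.257). It read 43.5, 61.3 and 33.4 in p53- Rb- arrays and 147, 99.3 and 152 in p53- arrays, a difference of -1.26 ± 0.20 (adjusted p = 0.000127). The D cyclins, partners of the kinases that phosphorylate Rb, did not pass, with -0.05 ± 0.18 for Ccnd1, 0.44 ± 0.17 for Ccnd2 and 0.06 ± 0.20 for Ccnd3. Cdk2, Cdk4, Cdk6, Ccne1 and Cdc25a had adjusted p between 0.231 and 0.521.

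**Figure D1:**
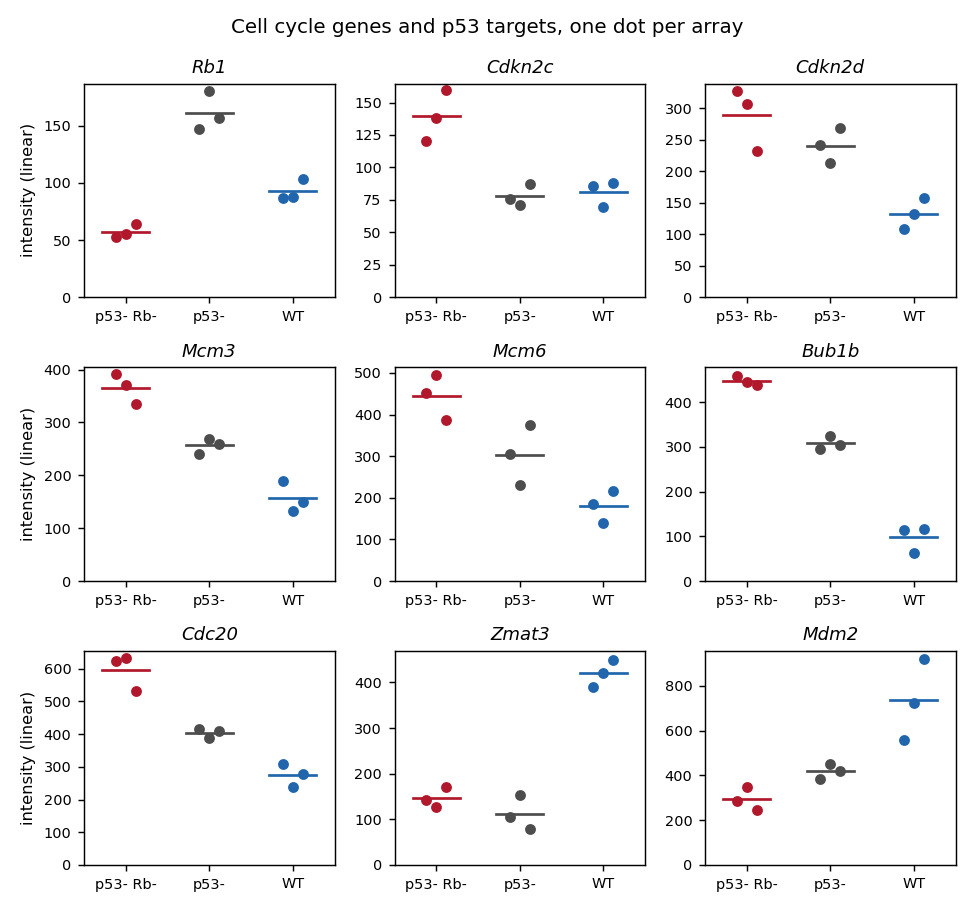
Intensity of 9 genes on a linear axis from 0, with 1 dot per array, lines at group means, and p53- Rb-, p53- and WT arrays from left to right. Cdkn2c is high in p53- Rb- arrays alone (120 to 160, against 69.2 to 87.7 in WT), while Zmat3 and Mdm2 are low in p53- Rb- and p53- arrays.

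Genes of DNA replication that E2F factors are known to activate rose in 37 of 49 and fell in 0 in p53- Rb- cells, with a median change of 0.69. In bulk RNA, more cells in S phase and more RNA per cell cannot be told apart. Pold3, a subunit of DNA polymerase delta, had the smallest p. Pold3 intensity was 205, 215 and 209 in p53- Rb- arrays and 94.9, 72.4 and 62.6 in WT arrays. The groups did not overlap, with each p53- Rb- array above each WT array. On the log2 scale it changed by 1.30 ± 0.17 (adjusted p = 2.33e-05). Mcm3, Mcm5 and Mcm6 encode parts of the helicase that opens DNA at origins. Mcm3 read 391, 371 and 335 in p53- Rb- arrays, against 188, 133 and 149.8 in WT arrays. Mcm6 stood at 451, 495 and 387 in p53- Rb- arrays, against 186, 138 and 215 in WT arrays. The p53- arrays lay between, at 239.9, 269 and 260 for Mcm3 and 304, 230.2 and 375 for Mcm6. Against WT, Mcm3 rose by 1.15 ± 0.15 (adjusted p = 2.83e-05), Mcm6 by 1.25 ± 0.19 (adjusted p = 0.00013) and Mcm5 by 0.98 ± 0.16 (adjusted p = 0.000316). These genes also differed from p53- cells, by 0.49 ± 0.15 for Mcm3 (adjusted p = 0.0301), 0.59 ± 0.16 for Mcm5 (adjusted p = 0.0131) and 0.55 ± 0.19 for Mcm6 (adjusted p = 0.0454). Chaf1a, a histone chaperone that packs new DNA, rose by 0.99 ± 0.16 (adjusted p = 0.000312), and Orc6, part of the origin recognition complex, by 1.20 ± 0.20 (adjusted p = 0.00037). Of the 49, 10 were higher and 4 lower in p53- Rb- than in p53- cells, where 9.36% and 10.4% of all genes were.

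Mitosis genes rose in 43 of 52, fell in 0 and had a median change of 0.84. Bub1b, the spindle checkpoint kinase BUBR1, had the largest change of them. Bub1b intensity was 458, 446 and 438 in p53- Rb- arrays and 115, 62.5 and 116 in WT arrays. Each p53- Rb- array lay above each WT array. The change was 2.07 ± 0.18 (adjusted p = 4.57e-08). Pttg1, the securin gene, read 1113, 1091 and 703 in p53- Rb- arrays and 317, 226 and 171 in WT arrays (1.97 ± 0.23, adjusted p = 4.86e-06), with replicate 3 the lowest of the p53- Rb- arrays. Cdc20, which activates the anaphase-promoting complex, rose by 1.07 ± 0.15 (adjusted p = 3.95e-05). The kinase gene Plk1 rose by 1.03 ± 0.15 (adjusted p = 7.11e-05), Ttk by 1.22 ± 0.18 (adjusted p = 7.18e-05) and the cytokinesis gene Racgap1 by 1.08 ± 0.15 (adjusted p = 4.96e-05). Against p53- cells both directions occurred: 7 of the 52 were higher and 18 lower in p53- Rb- cells. Of all genes 9.36% were higher and 10.4% lower. The median of the 52 was -0.13 where all genes had -0.08. Bub1b (0.52 ± 0.18, adjusted p = 0.0424) and Cdc20 (0.54 ± 0.15, adjusted p = 0.0133) were among the 7 mitosis genes that were higher. The p53- cells had their own 46 risers of 52 against WT, where 19.3% of all genes rose, with a median of 1.07 where all genes had 0.12.

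Promoters are shown for the 4 genes of the S-phase, mitosis and p53 target lists that had the smallest p and held the motif letters searched for. The motifs were the E2F octamers TTTCCCGC, TTTGGCGC, TTTGCCGC and TTTCGCGC, and the cell cycle element CHR (TTTGAA or TTCGAA) together with CCAAT, each on either strand. Capitals mark these letters, and each sequence is the 250 bases before the RefSeq start of the gene in GRCm38.p6, read 5′ to 3′ on the strand of the gene. Those of Bub1b (chr2:118597961-118598210, plus strand), Cdc20 (chr4:118437344-118437593, minus strand) and Aen (chr7:78895677-78895926, plus strand) hold CHR and CCAAT letters. The promoter of Mcm6 (chr1:128359706-128359955, minus strand) holds E2F octamers, 2 of which overlap, and CCAAT letters.
Bub1b: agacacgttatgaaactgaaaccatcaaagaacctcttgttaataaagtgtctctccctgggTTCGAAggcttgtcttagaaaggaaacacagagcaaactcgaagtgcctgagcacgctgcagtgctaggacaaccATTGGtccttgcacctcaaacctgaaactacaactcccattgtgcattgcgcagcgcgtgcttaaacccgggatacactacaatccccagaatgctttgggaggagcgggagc
Cdc20: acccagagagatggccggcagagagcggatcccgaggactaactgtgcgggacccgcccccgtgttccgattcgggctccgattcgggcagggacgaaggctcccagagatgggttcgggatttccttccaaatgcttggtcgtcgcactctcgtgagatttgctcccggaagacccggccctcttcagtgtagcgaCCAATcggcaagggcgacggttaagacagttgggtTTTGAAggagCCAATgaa
Mcm6: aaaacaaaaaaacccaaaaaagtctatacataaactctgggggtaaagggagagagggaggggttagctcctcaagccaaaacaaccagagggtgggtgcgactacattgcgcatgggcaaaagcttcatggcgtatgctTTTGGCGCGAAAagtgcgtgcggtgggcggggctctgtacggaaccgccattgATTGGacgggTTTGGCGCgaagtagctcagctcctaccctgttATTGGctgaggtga
Aen: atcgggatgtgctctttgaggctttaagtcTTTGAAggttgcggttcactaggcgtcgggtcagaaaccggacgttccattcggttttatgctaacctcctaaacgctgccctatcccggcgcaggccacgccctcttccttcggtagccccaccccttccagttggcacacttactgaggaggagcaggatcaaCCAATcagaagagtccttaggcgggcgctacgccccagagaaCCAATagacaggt

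An E2F octamer stood in 9 of 40 S-phase promoters (22.5%), 4 of 44 mitosis promoters (9.09%) and 1 of 35 promoters of p53 targets (2.86%), against 396 of 15563 promoters of measured genes (2.54%). Among the 4 promoters printed, octamers were found in that of Mcm6 alone. CHR with CCAAT stood in 6 of 40 S-phase promoters (15%), 11 of 44 mitosis promoters (25%) and 4 of 35 p53 target promoters (11.4%), against 872 of 15563 (5.6%). These are matches of letters in 1 window, not binding sites.

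DNA repair and checkpoint genes rose in 15 of 27, fell in 0 and had a median change of 0.59. The count was 9 without p53- Rb- replicate 2 or without WT replicate 2. Exo1, an exonuclease of mismatch repair, rose by 1.06 ± 0.18 (adjusted p = 0.000468), and the homologous recombination genes Brca1 and Bard1 by 0.86 ± 0.17 (adjusted p = 0.00162) and 0.82 ± 0.19 (adjusted p = 0.00534). Fancd2, of the Fanconi pathway for crosslink repair, rose by 0.73 ± 0.16 (adjusted p = 0.00352). Chek1, the checkpoint kinase gene, read 64.9, 87.4 and 51.1 in p53- Rb- arrays, 134, 134 and 133 in p53- arrays and 21.1, 27.4 and 44.7 in WT arrays. It rose against WT (0.84 ± 0.19, adjusted p = 0.00555) and was lower than in p53- cells (-0.86 ± 0.19, adjusted p = 0.00331). So were 9 of the 27 genes, against 1 that was higher, where 10.4% of all genes were lower and 9.36% higher. Replication-dependent histone genes rose in 6 of 15, with a median change of 0.42. H1f1, a linker histone gene, read 495, 417 and 534 in p53- Rb- arrays and 205, 182 and 178 in WT arrays (1.28 ± 0.16, adjusted p = 1.08e-05). Histone genes have near-identical copies that probes may not separate, so these values are uncertain. For H4c4, a histone H4 gene, p53- Rb- replicate 3 lay far below the other two, at 3629, 3495 and 1194 in p53- Rb- arrays, against 866, 893 and 948 in WT arrays.

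Genes that p53 is known to activate fell in 14 of 43 and rose in 0 (32.6%, where 3.75% of all genes fell), with a median change of -0.20. Zmat3, whose RNA-binding product restrains growth, was one. Zmat3 read 142, 128 and 171 in p53- Rb- arrays, against 390.1, 421 and 449.7 in WT arrays. There was no overlap, and p53- Rb- arrays lay below WT arrays. Its log2 fold change was -1.43 ± 0.20 (adjusted p = 5.34e-05). Mdm2, which encodes the ubiquitin ligase that removes p53, fell too. Mdm2 stood at 285, 347 and 247 in p53- Rb- arrays, against 559, 724 and 921 in WT arrays. The groups did not overlap, with each p53- Rb- array below each WT array. This gave a log2 fold change of -1.27 ± 0.19 (adjusted p = 9.02e-05). Dcxr, for the enzyme that reduces L-xylulose, fell, with -1.50 ± 0.18 (adjusted p = 8.42e-06), and so did Ccng1, the cyclin G1 gene, with -1.03 ± 0.16 (adjusted p = 0.000165). The nuclease gene Aen changed by -1.13 ± 0.17 (adjusted p = 0.000139). Trp53inp1, a nuclear protein gene that p53 induces under stress, was lower than in p53- cells too. Trp53inp1 intensity was 77.6, 103 and 63.2 in p53- Rb- arrays and 196, 344 and 413 in WT arrays. The p53- arrays read 192, 207 and 200.1, and the change was -1.74 ± 0.22 against WT (adjusted p = 1.25e-05) and -1.17 ± 0.22 against p53- cells (adjusted p = 0.000679). In p53- cells 21 of the 43 fell and 4 rose against WT, where 9.71% and 19.3% of all genes did. Between p53- Rb- and p53- cells 10 were higher, where 9.36% of all genes were, and 5 lower, near the 10.4% of all genes. Dcxr was one of the higher genes, with 154, 139 and 193 in p53- Rb- arrays, 97.2, 121 and 67.8 in p53- arrays and a difference of 0.69 ± 0.18 (adjusted p = 0.00946). Of 23 genes of the BCL2 family and caspases, which carry out cell death, Bok alone passed against WT (4.35%, against 14.6% of all genes). This proapoptotic member rose by 0.68 ± 0.17 (adjusted p = 0.00831), and the list's median change was 0.06.

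Genes of the extracellular matrix and of mesenchymal cells formed the next large group of risers. Collagen genes rose in 13 of 33 and fell in 1 (42.4%, against 14.6% of all genes), with a median change of 0.45. Col1a1 and Col1a2 encode the chains of fibrillar collagen I. Col1a1 read 1334, 1516 and 1586 in p53- Rb- arrays, against 581, 649 and 741 in WT arrays. Col1a2 stood at 1371, 1652 and 1514 in p53- Rb- arrays, against 577, 519.8 and 679.9 in WT arrays. Neither gene overlapped, and the changes were 1.16 ± 0.16 (adjusted p = 2.96e-05) and 1.33 ± 0.17 (adjusted p = 1.03e-05). The p53- arrays read 537, 545 and 535 for Col1a1 and 547, 552 and 572 for Col1a2, and none of them was above the highest WT array. Col5a2 rose by 1.42 ± 0.20 (adjusted p = 4.24e-05), Col8a1 by 1.39 ± 0.18 (adjusted p = 2.04e-05) and Col11a1 by 0.97 ± 0.16 (adjusted p = 0.000279). Col4a2, of basement membrane collagen, rose by 0.92 ± 0.17 (adjusted p = 0.000742). The one to fall, Col11a2 (-0.59 ± 0.18, adjusted p = 0.0288), did not pass when WT replicate 1 or 2 or any p53- Rb- array was left out (adjusted p from 0.0625 to 0.145).

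Microfibril, fibulin and proteoglycan genes rose in 10 of 24, fell in 0 and had a median change of 0.53. Mfap4 and Mfap5 encode proteins of elastic microfibrils. Mfap4 intensity was 286, 253 and 531 in p53- Rb- arrays and 162, 96.3 and 158 in WT arrays. In p53- arrays it read 27.3, 17.5 and 32.9, below every array of the other groups. Mfap4 thus rose against WT (1.22 ± 0.24, adjusted p = 0.00132) and against p53- cells (3.10 ± 0.24, adjusted p = 2.66e-08), while p53- cells were below WT (-1.87 ± 0.24, adjusted p = 7.42e-06). Mfap5 had the same order, with 1.17 ± 0.22 against WT (adjusted p = 0.000996) and 2.51 ± 0.22 against p53- cells (adjusted p = 1.39e-07). The fibulin genes Fbln1, Fbln2 and Fbln5, for glycoproteins of elastic fibres and basement membranes, rose by 1.35 ± 0.17, 0.77 ± 0.17 and 1.01 ± 0.21 (adjusted p = 1.16e-05, 0.00391 and 0.00252).

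Genes linked to the mesenchymal transition rose in 16 of 29, fell in 0 and had a median change of 0.57. Vim, the intermediate filament gene of mesenchymal cells, was 2281, 2329 and 2898 in p53- Rb- arrays and 1117, 971 and 1108 in WT arrays (1.21 ± 0.15, adjusted p = 1.1e-05). Cdh2, the N-cadherin gene, rose by 1.14 ± 0.18 (adjusted p = 0.000141), and the transcription factor gene Twist1 by 0.98 ± 0.17 (adjusted p = 0.000618). Lox, a lysyl oxidase that crosslinks collagen, rose by 0.92 ± 0.16 (adjusted p = 0.000437) and Tnc, the tenascin C gene, by 1.00 ± 0.16 (adjusted p = 0.000176). Itga5, the fibronectin receptor subunit, read 1062, 1012 and 1474 in p53- Rb- arrays, 391, 479.8 and 434 in p53- arrays and 486, 418 and 498 in WT arrays. It rose against WT (1.29 ± 0.16, adjusted p = 1.25e-05) and against p53- cells (1.40 ± 0.16, adjusted p = 5.86e-06), as did Lox against p53- cells (0.95 ± 0.16, adjusted p = 0.000235). For Cdh2, p53- Rb- and p53- cells did not differ at the threshold (0.04 ± 0.18, adjusted p = 0.897).

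Fibroblast markers moved with these genes. Of 26 measured, 12 rose and 0 fell, with a median change of 0.35, and 7 rose without WT replicate 2. Their summed intensity ran from 11077 to 14123 in p53- Rb- arrays, from 6746 to 7039 in p53- arrays and from 7420 to 8250 in WT arrays. Collagen I, Mfap4 and Mfap5 are in this list too. Pdgfra and Pdgfrb, receptors that define fibroblasts and pericytes, rose as well. Pdgfra read 155, 195 and 215 in p53- Rb- arrays, against 86.6, 79.5 and 127 in WT arrays. Pdgfrb stood at 627, 662 and 906 in p53- Rb- arrays, against 420.1, 379 and 518 in WT arrays. Their changes were 0.86 ± 0.19 (adjusted p = 0.00464) and 0.71 ± 0.19 (adjusted p = 0.0155). Pdgfrb did not pass without p53- Rb- replicate 3 (adjusted p = 0.0826) or WT replicate 2 (0.0799). Thy1, a surface protein of fibroblasts, rose by 0.86 ± 0.20 (adjusted p = 0.00506, or 0.0646 with a constant of 1) and was also high in p53- cells (354, 438 and 271). Whether fibroblasts in the cultures had a part in the matrix results was not tested.

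**Figure D2:**
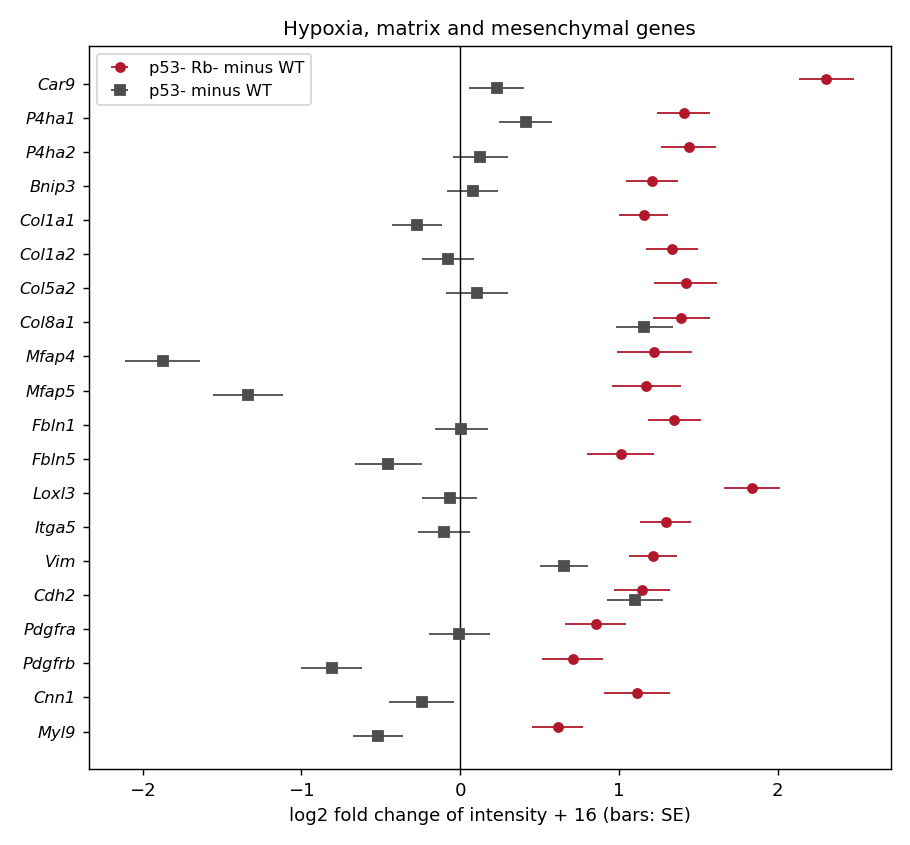
Log2 fold changes of intensity plus 16 with SE bars for 20 hypoxia, matrix, mesenchymal and contractile genes, p53- Rb- minus WT as circles and p53- minus WT as squares (both share the WT arrays). Mfap4 lies at 1.22 for p53- Rb- and -1.87 for p53-, while Col8a1 and Cdh2 lie above 1 in both.

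Protease and inhibitor genes rose in 10 of 34 and fell in 1 (32.4%, against 14.6% of all genes), with a median change of 0.24. Without WT replicate 1, 6 rose. The faller, Mmp12, did not pass when any 1 of the 6 arrays was left out (adjusted p from 0.0514 to 0.209). The metalloprotease gene Adam19 rose by 1.28 ± 0.18 (adjusted p = 3.5e-05), the PEDF gene Serpinf1 by 0.97 ± 0.15 (adjusted p = 0.000196) and Plat, the tissue plasminogen activator gene, by 0.83 ± 0.16 (adjusted p = 0.00133). Integrin and laminin genes rose in 8 of 30 and fell in 2 (33.3%, against 14.6% of all genes), with a median change of 0.32. Lama2, Lamb1 and Lamc1 encode the 3 chains of laminin 211, and they rose by 1.17 ± 0.19, 0.79 ± 0.15 and 0.89 ± 0.17 (adjusted p = 0.000253, 0.00124 and 0.00114). Lama3, the laminin 332 chain that anchors epithelia, went the other way. Lama3 intensity was 521, 624 and 402 in p53- Rb- arrays and 857, 809.5 and 989 in WT arrays. Its groups did not overlap (-0.78 ± 0.22, adjusted p = 0.0216), but the call ended without p53- Rb- replicate 3 (adjusted p = 0.104), without p53- Rb- replicate 1 (0.0571) or without WT replicate 3 (0.06). Itga2, a collagen receptor of epithelia, changed by -0.66 ± 0.18 (adjusted p = 0.0187, or 0.115 without p53- Rb- replicate 3 and 0.056 without WT replicate 3).

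The 6 defining epithelial genes were bright in p53- Rb- and WT cells alike. The luminal keratin Krt8 read 3405, 3344 and 3009 in p53- Rb- arrays and 3069, 3094 and 3212 in WT arrays, and the basal keratin Krt5 read 2268, 2272 and 1874 in p53- Rb- arrays and 2240.2, 2267 and 2426 in WT arrays. Krt8, Krt18, Epcam, Cdh1, Krt5 and Krt14 had log2 fold changes between -0.12 and 0.06, and none passed (adjusted p from 0.712 to 0.936). Defining markers of leukocytes, adipocytes and endothelium read at most 105 in any array of the 3 groups. Ptprc, of leukocytes, read 27.3, 31.4 and 18.5 in p53- Rb- arrays and 23.5, 16.1 and 19.1 in WT arrays, and Adipoq, of adipocytes, 28.3, 30.9 and 35.8 in p53- Rb- arrays and 22.3, 35.6 and 22.9 in WT arrays. Pecam1, of endothelium, read 61.6, 49.4 and 60.6 in p53- Rb- arrays and 45.8, 66.4 and 105 in WT arrays, and none of the 3 passed (adjusted p from 0.505 to 0.621). Of 18 endothelial markers 1 rose, Flt1, and 1 fell, Plvap, which lost its call without WT replicate 1 or 2 or any p53- Rb- array (adjusted p from 0.0528 to 0.143). Of 13 adipocyte markers 1 fell, Dgat2. The medians of these lists were -0.15 and -0.21, and 11.1% and 7.69% of their members passed, against 14.6% of all genes.

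Luminal markers fell in 3 of 35 and rose in 1 (11.4%, against 14.6% of all genes), with a median change of -0.18. Of all genes 3.75% fell and 10.8% rose. In p53- cells 14 of the 35 fell and 0 rose against WT, where 9.71% and 19.3% of all genes did. Those that fell in p53- Rb- cells were Kit, a growth factor receptor, Cd14, a lipopolysaccharide co-receptor, and Ehf, an epithelial ETS factor. Kit read 61.4, 71.1 and 66.2 in p53- Rb- arrays, against 249.7, 195 and 162 in WT arrays. Ehf stood at 268, 292 and 358 in p53- Rb- arrays, against 923, 883 and 872 in WT arrays. Neither gene overlapped between the groups, with changes of -1.39 ± 0.19 (adjusted p = 2.84e-05) and -1.51 ± 0.21 (adjusted p = 3.43e-05). Cd14 read 439.6, 416 and 437 in p53- Rb- arrays and 1751, 1582 and 1366 in WT arrays (-1.82 ± 0.18, adjusted p = 4.54e-07). Prom1, which marks hormone-sensing luminal cells in the mouse, rose. Prom1 intensity was 341, 368 and 338 in p53- Rb- arrays and 156, 119 and 156 in WT arrays. Its change was 1.20 ± 0.16 against WT (adjusted p = 2.77e-05) and 0.86 ± 0.16 against p53- cells (adjusted p = 0.00072).

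Basal markers rose in 5 of 29 and fell in 4 (31%, against 14.6% of all genes), with a median change of -0.03. The risers included contractile genes. Tagln, an actin-binding protein gene of smooth muscle, read 1229, 1251 and 792 in p53- Rb- arrays and 431, 423 and 451 in WT arrays (1.27 ± 0.22, adjusted p = 0.000463). Cnn1, the calponin gene, rose by 1.11 ± 0.21 (adjusted p = 0.000981), and by 1.36 ± 0.21 over p53- cells (adjusted p = 9.76e-05). Trp63, which encodes the p63 factor of basal epithelium, fell. Trp63 read 151, 158 and 143 in p53- Rb- arrays, against 310.1, 272 and 392 in WT arrays. Each p53- Rb- array lay below each WT array. On the log2 scale it changed by -1.02 ± 0.18 (adjusted p = 0.000643). Procr, a receptor of basal stem cells, changed by -0.91 ± 0.23 (adjusted p = 0.011, or 0.453 with a constant of 1). The count of risers was 2 without p53- Rb- replicate 3 and 3 without p53- Rb- replicate 1 or WT replicate 2, and the count of fallers was 2 without p53- Rb- replicate 1 or 3. Tight junction and desmosome genes fell in 4 of 28 (14.3%), where 3.75% of all genes fell and 14.6% passed. They rose in 0 and had a median change of -0.20, with 2 fallers without WT replicate 2. Tjp3, a junction scaffold gene, changed by -0.77 ± 0.15 (adjusted p = 0.00151) and the envoplakin gene Evpl by -0.79 ± 0.17 (adjusted p = 0.00282).

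**Figure D3:**
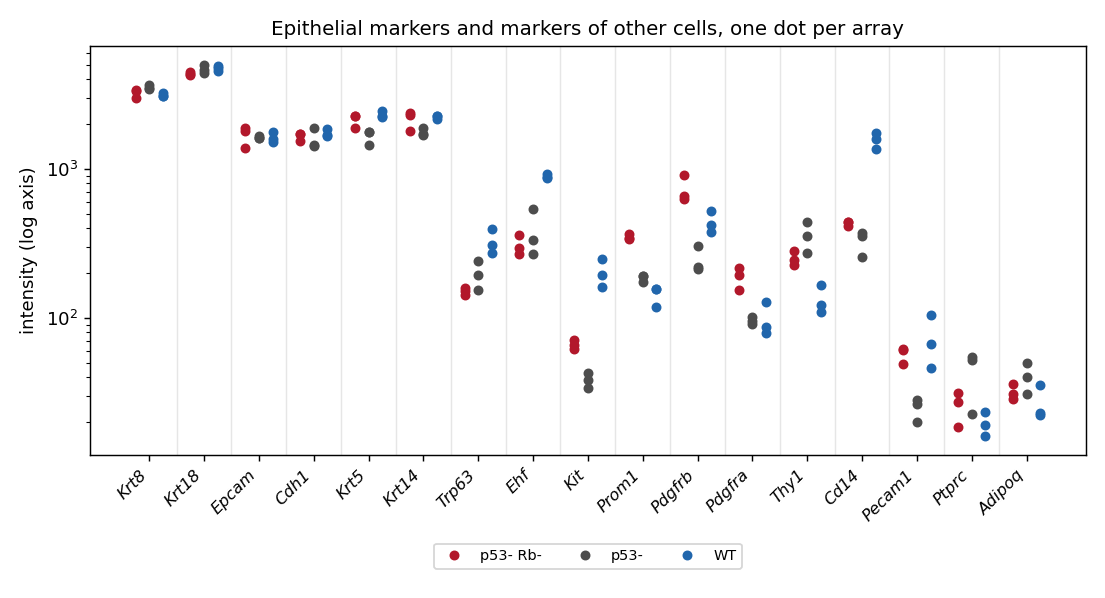
Intensity on a log axis, with 1 dot per array and p53- Rb-, p53- and WT arrays from left to right within each gene, for epithelial markers and for markers of fibroblasts, leukocytes, endothelium and adipocytes. Krt8 to Krt14 sit together near the top in all 3 groups. Kit and Ehf lie below WT in p53- Rb- and p53- arrays, and Ptprc and Adipoq stay at or under 54.5.

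The cytokine and chemokine list had the largest share of fallers of the 37 lists. In p53- Rb- cells 18 of 37 fell and 3 rose, with a median change of -0.52. The p53- cells were much alike, with 17 that fell and 6 that rose against WT and a median of -0.455. Of all genes 9.71% fell and 19.3% rose there. Between p53- Rb- and p53- cells 12 were lower and 5 higher, where 10.4% and 9.36% of all genes were. Csf3, the granulocyte colony-stimulating factor gene, read 166, 148 and 176 in p53- Rb- arrays, 424, 683 and 252 in p53- arrays and 1803, 2098 and 1898 in WT arrays. It fell against WT (-3.45 ± 0.25, adjusted p = 4.05e-09) and stood below p53- cells too (-1.29 ± 0.25, adjusted p = 0.00102). Cxcl1, Cxcl2, Cxcl3 and Cxcl5 encode chemokines that draw neutrophils. Cxcl2 stood at 139.6, 155 and 180.1 in p53- Rb- arrays, against 1254, 1781 and 1726 in WT arrays. Cxcl1 intensity was 332, 372 and 244 in p53- Rb- arrays and 1267, 1698 and 1560 in WT arrays. Neither overlapped between the groups, and the changes were -3.19 ± 0.23 (adjusted p = 4.05e-09) and -2.21 ± 0.19 (adjusted p = 3.7e-08). All 4 of these chemokine genes were lower in p53- Rb- than in p53- cells at the threshold, with differences of -1.37 for Cxcl2, -1.29 for Cxcl3, -1.15 for Cxcl5 and -1.06 for Cxcl1 (log2, adjusted p from 7.32e-05 to 0.000658). Ccl3, a macrophage chemokine gene, read 6.84, 12.8 and 18.6 in p53- Rb- arrays and 201, 198 and 256 in WT arrays (-3.04 ± 0.20, adjusted p = 9.85e-10). It was as low in p53- cells, at 19.9, 12.4 and 16. The 3 that rose were Tslp, Il33 and Il15, the last not without WT replicate 2 (adjusted p = 0.0556) or p53- Rb- replicate 2 (0.0596). Tslp, an epithelial alarmin, read 57.7, 66.5 and 91.2 in p53- Rb- arrays, 99.2, 218 and 101 in p53- arrays and 15.8, 22.9 and 5.70 in WT arrays (1.53 ± 0.25 against WT, adjusted p = 0.000297).

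Secreted defence and milk genes fell in 11 of 28, rose in 1 and had a median change of -0.41. In p53- cells 11 of the 28 fell and 4 rose against WT, where 9.71% and 19.3% of all genes did. S100a8 and S100a9 encode the subunits of calprotectin, an antimicrobial protein. S100a8 read 161, 188 and 179 in p53- Rb- arrays, against 3088, 2895 and 2699.8 in WT arrays. S100a9 stood at 46.5, 50.7 and 35.2 in p53- Rb- arrays, against 864, 758 and 707 in WT arrays. Neither overlapped, with changes of -3.92 ± 0.24 (adjusted p = 2.92e-10) and -3.72 ± 0.27 (adjusted p = 3.95e-09). Both also lay below p53- cells, with differences of -1.26 ± 0.24 (adjusted p = 0.000893) and -0.88 ± 0.27 (adjusted p = 0.0256). Ltf, the lactoferrin gene, changed by -2.63 ± 0.19 (adjusted p = 2.82e-09), and Chil1, a chitinase-like protein gene, by -2.70 ± 0.23 (adjusted p = 3.17e-08). The caseins parted. Csn1s1 read 6.59, 3.97 and 9.89 in p53- Rb- arrays and 262, 164 and 161 in WT arrays (-3.19 ± 0.20, adjusted p = 2.56e-10). Csn3, the kappa-casein gene, was the riser, with 2665, 2411 and 3739 in p53- Rb- arrays and 1316, 1494 and 1081 in WT arrays (1.16 ± 0.19, adjusted p = 0.000236).

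Acute-phase and complement genes fell in 9 of 24, rose in 1 and had a median change of -0.41. In p53- cells 13 of the 24 fell and 0 rose against WT, where 9.71% and 19.3% of all genes did. Saa1, a serum amyloid A gene, was near the low end of the arrays in p53- Rb- and p53- cells. Its fold therefore depends on the constant added. Saa1 intensity was 2.53, 6.07 and 4.91 in p53- Rb- arrays and 476, 398 and 364 in WT arrays. There was no overlap, and p53- Rb- arrays lay below WT arrays. The change was -4.38 ± 0.17 (adjusted p = 1.06e-13). Over the alternatives the change ran from -6.28 to -2.79. Its p53- arrays were as low, at 7.20, 4.41 and 7.93. Orm1, the orosomucoid gene, changed by -1.59 ± 0.17 (adjusted p = 1.7e-06), the complement gene Cfb by -1.85 ± 0.23 (adjusted p = 1.03e-05) and Cd55, which shields cells from complement, by -1.61 ± 0.19 (adjusted p = 4.46e-06). Saa3 read 335, 329 and 771 in p53- Rb- arrays, 182, 94.6 and 137 in p53- arrays and 895, 992 and 982 in WT arrays, with p53- Rb- replicate 3 nearest to WT. It fell against WT (-1.09 ± 0.25, adjusted p = 0.00499) and was above p53- cells (1.61 ± 0.25, adjusted p = 0.000104). Serping1, the C1 inhibitor gene, rose. Serping1 read 987, 951 and 1576 in p53- Rb- arrays, against 584, 681 and 744 in WT arrays. It was far lower in p53- arrays, at 139.8, 167 and 131. Its changes were 0.76 ± 0.18 against WT (adjusted p = 0.00666) and 2.84 ± 0.18 against p53- cells (adjusted p = 1.08e-09).

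Some leukocyte markers were lower beside these genes. Of 23 measured, 5 fell and 0 rose (21.7%, where 3.75% of all genes fell). Their median change was -0.24, and 14 had group means under 50 in both groups. Their summed intensity ran from 1223 to 1336 in p53- Rb- arrays, from 1056 to 1200 in p53- arrays and from 2798 to 3118 in WT arrays. The fallers were Cd14 and Lyz2, which luminal cells also express in the mouse, and Fcer1g, Cd3e and Tyrobp. Cd3e did not pass without WT replicate 2 (adjusted p = 0.0539), and Tyrobp lost its call in 10 of 16 alternatives, among them without WT replicate 1 or 3 or any p53- Rb- array (adjusted p from 0.0518 to 0.217). Lyz2, the lysozyme gene, read 62.9, 58.1 and 111 in p53- Rb- arrays, 12.7, 25.7 and 15.3 in p53- arrays and 316, 223 and 328 in WT arrays (-1.73 ± 0.20 against WT, adjusted p = 5.76e-06). Fcer1g, an Fc receptor chain, changed by -0.79 ± 0.15 (adjusted p = 0.000924). Cd14, whose values are given above, and Lyz2 made up most of the difference in summed intensity between p53- Rb- and WT arrays. Ptprc, also given above, was near the low end in both groups. Whether leukocytes in the WT cultures had a part in the inflammatory results was not tested.

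**Figure D4:**
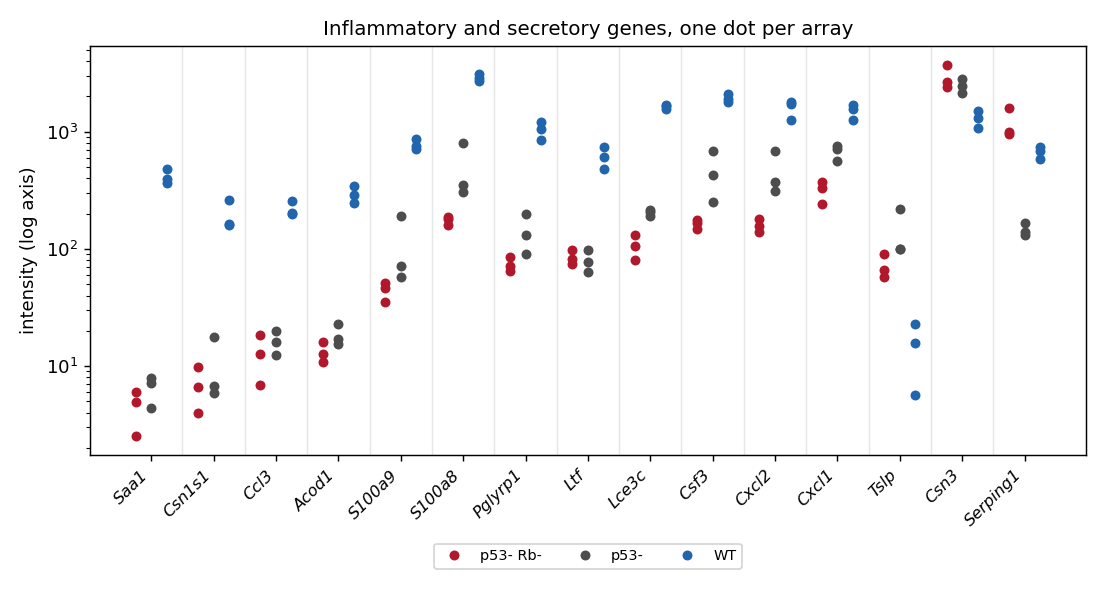
Intensity of 15 inflammatory and secretory genes on a log axis, with 1 dot per array and p53- Rb-, p53- and WT arrays from left to right within each gene. The first 12 genes are lowest or level with p53- in p53- Rb- arrays and highest in WT, from Saa1 (364.4 to 475.7 in WT) to Cxcl1, while Tslp, Csn3 and Serping1 are higher in p53- Rb- than in WT arrays.

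Interferon-induced genes rose in 4 of 33 (12.1%), near the share of all genes that rose, and fell in 0, with a median change of 0.16. The count was 1 without p53- Rb- replicate 1 or 2 and 2 without WT replicate 2. Stat2, a factor that interferon activates, was one that held in each of 17 alternatives. Stat2 stood at 242, 267 and 180.4 in p53- Rb- arrays, against 121, 119 and 101 in WT arrays. The groups did not overlap, with each p53- Rb- array above each WT array. Its log2 fold change was 0.91 ± 0.16 (adjusted p = 0.000695). Of the 33, 14 were lower in p53- Rb- than in p53- cells, where 10.4% of all genes were. In p53- cells 17 rose against WT, where 19.3% of all genes did. Cxcl10, an interferon-induced chemokine, was one of the lower genes, with 26, 36.8 and 16.8 in p53- Rb- arrays and 127, 174 and 128 in p53- arrays (-1.92 ± 0.22, adjusted p = 5.19e-06). Of 20 antigen presentation genes 1 rose, the peptide transporter gene Tap2 (0.67 ± 0.18, adjusted p = 0.0128), which did not pass without p53- Rb- replicate 1 (adjusted p = 0.0626) or WT replicate 2 (0.0962). The share of the 20 that passed was 5%, against 14.6% of all genes, and their median was 0.05, equal to that of all genes.

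Hypoxia-induced genes rose in 10 of 25, fell in 2 and had a median change of 0.36. Car9, carbonic anhydrase 9 of the cell surface, showed it most. Car9 intensity was 232, 186 and 210.4 in p53- Rb- arrays and 36.4, 28.2 and 24.4 in WT arrays. Each p53- Rb- array lay above each WT array. This gave a log2 fold change of 2.31 ± 0.17 (adjusted p = 6.79e-09). With p53 lost alone it read 46.3, 38.9 and 28.1, and the double deletion differed from them by 2.08 ± 0.17 (adjusted p = 8.25e-08). P4ha1 and P4ha2 encode the enzymes that hydroxylate proline in collagen. P4ha1 read 367, 400 and 367 in p53- Rb- arrays, against 119, 127 and 153 in WT arrays. P4ha2 stood at 548, 570.4 and 575 in p53- Rb- arrays, against 184, 164 and 256 in WT arrays. They rose by 1.41 ± 0.17 (adjusted p = 5.76e-06) and 1.44 ± 0.17 (adjusted p = 6.84e-06). Bnip3, a mitophagy receptor gene, rose by 1.21 ± 0.16 (adjusted p = 2.84e-05), and Egln1, whose product senses oxygen, by 1.14 ± 0.20 (adjusted p = 0.000701). Each of these 5 genes was also above p53- cells at the threshold (adjusted p from 8.25e-08 to 0.00819). The 2 that fell were Angptl4, a lipoprotein lipase inhibitor gene (-0.68 ± 0.18, adjusted p = 0.0151), and Ddit4, an mTORC1 inhibitor gene that p53 also activates (-0.79 ± 0.22, adjusted p = 0.0196). Neither passed without p53- Rb- replicate 1 (adjusted p = 0.0532 and 0.0779), without p53- Rb- replicate 2 (0.0617 and 0.0961) or without WT replicate 1 (0.0732 and 0.0562), nor did Ddit4 without WT replicate 2 (0.0765). Glycolysis genes rose in 4 of 16 and fell in 0 (25%, against 14.6% of all genes), with a median change of 0.27. They were the phosphofructokinase genes Pfkp (1.06 ± 0.17, adjusted p = 0.000153) and Pfkm (0.55 ± 0.15, adjusted p = 0.0139), the enolase gene Eno2 (with 64.9, 64.8 and 99.3 in p53- Rb- arrays and 36.7, 12.9 and 34.3 in WT arrays, adjusted p = 0.00432) and the hexokinase gene Hk2 (0.68 ± 0.16, adjusted p = 0.00724). Against p53- cells 10 of the 16 were higher and 0 lower, where 9.36% and 10.4% of all genes were.

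Genes of the unfolded protein and integrated stress responses rose in 14 of 27, fell in 1 and had a median change of 0.53. The count of risers was 8 without p53- Rb- replicate 1 and 9 without p53- Rb- replicate 2 or WT replicate 2. Asns, the asparagine synthetase gene, which ATF4 induces when amino acids run short, led by p. Asns intensity was 875, 861 and 831 in p53- Rb- arrays and 442, 348 and 373 in WT arrays. There was no overlap, and p53- Rb- arrays lay above WT arrays. On the log2 scale it changed by 1.12 ± 0.15 (adjusted p = 2.53e-05). Chac1, which degrades glutathione, rose by 1.08 ± 0.17 (adjusted p = 0.000223), Psat1, of serine synthesis, by 0.93 ± 0.18 (adjusted p = 0.00109), and Ddit3, the CHOP factor gene, by 1.15 ± 0.22 (adjusted p = 0.00132). Slc7a11, the cystine transporter gene, fell. Slc7a11 read 37.9, 47.8 and 53.5 in p53- Rb- arrays, against 126, 97.6 and 164 in WT arrays. Its change was -1.20 ± 0.19 against WT (adjusted p = 0.00021) and -0.83 ± 0.19 against p53- cells (adjusted p = 0.00387). It is also an NRF2 target, and NRF2 antioxidant genes fell in 7 of 25, rose in 0 and had a median change of -0.28. Nqo1, a quinone reductase gene, changed by -0.97 ± 0.18 (adjusted p = 0.00106) and Sod2, the mitochondrial superoxide dismutase gene, by -0.64 ± 0.14 (adjusted p = 0.00456). The count was 3 without p53- Rb- replicate 1 or WT replicate 1 and 4 without p53- Rb- replicate 2 or WT replicate 2. In p53- cells 12 of the 25 NRF2 genes fell and 1 rose against WT, where 9.71% and 19.3% of all genes did.

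Ribosome biogenesis genes rose in 15 of 39 and fell in 0 (38.5%, where 10.8% of all genes rose), with a median change of 0.40. Pes1, of large subunit assembly, rose by 0.72 ± 0.14 (adjusted p = 0.00171), and the RNA polymerase I subunit genes Polr1a and Polr1c by 0.69 ± 0.16 (adjusted p = 0.00513) and 0.66 ± 0.15 (adjusted p = 0.00406). This count was 7 without p53- Rb- replicate 1 or 2 and 6 without WT replicate 2. Of 23 ribosomal protein genes 3 passed (13%), near the share of all genes, with a median change of 0.15. Rpl14 and Rps14 rose, but 0 rose without p53- Rb- replicate 1 or 2 or any WT array. Rpl30 fell, but not without p53- Rb- replicate 1 or 2 or WT replicate 1 or 2. Cholesterol synthesis genes gave 1 riser and 1 faller of 20 (10%) and a median of -0.01. The riser, Tm7sf2, did not pass without p53- Rb- replicate 1 (adjusted p = 0.108) or WT replicate 2 (0.0799). Idi1, an isomerase of isoprenoid synthesis, was the one that fell. Idi1 stood at 274, 301 and 259.8 in p53- Rb- arrays, against 490.4, 466 and 461 in WT arrays. Its change was -0.73 ± 0.20 against WT (adjusted p = 0.0139) and -1.08 ± 0.20 against p53- cells (adjusted p = 0.000489).

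Of 30 TGF-beta and BMP genes 7 rose and 3 fell (33.3%, against 14.6% of all genes), with a median change of -0.03. The risers numbered 4 without p53- Rb- replicate 2 or 3 or WT replicate 2. The fallers numbered 1 without p53- Rb- replicate 1 or WT replicate 2. Acvrl1, a receptor for BMP9 known from endothelium, read 90.1, 75.2 and 109 in p53- Rb- arrays and 36.5, 25 and 34.6 in WT arrays (1.16 ± 0.17, adjusted p = 7.36e-05). Bambi, a decoy receptor of the pathway, rose by 1.06 ± 0.15 (adjusted p = 7.38e-05), while the BMP target Id1 fell (-0.72 ± 0.16, adjusted p = 0.00403). Wnt and Notch genes rose in 2 of 37 and fell in 4, where 10.8% of all genes rose and 3.75% fell. Their median change was 0.03, and the 16.2% that passed in either direction was near the 14.6% of all genes. Fallers came to 1 without p53- Rb- replicate 2, 2 without p53- Rb- replicate 3, 1 without WT replicate 1, 0 without WT replicate 2 and 2 without WT replicate 3. Wnt5a, a ligand of noncanonical signalling, rose by 0.75 ± 0.19 (adjusted p = 0.0106, or 0.0815 with a constant of 1). Jag2, a Notch ligand gene and the other riser, lost its call without WT replicate 2 or any p53- Rb- array (adjusted p from 0.057 to 0.2). Of 27 EGF and IGF genes 2 rose and 1 fell (11.1%, against 14.6% of all genes), with a median of -0.12. Igf1r, 1 of the risers, did not pass without p53- Rb- replicate 2 or 3 or WT replicate 1 or 2 (adjusted p from 0.0511 to 0.0915). Ereg, the epiregulin gene, read 143, 159.5 and 271 in p53- Rb- arrays and 485, 436 and 409 in WT arrays (-1.20 ± 0.26, adjusted p = 0.00325), and Igfbp6, an IGF-II binding protein gene, rose by 0.80 ± 0.17 (adjusted p = 0.00352). Immediate early factors rose in 3 of 26 and fell in 2 (19.2%, against 14.6% of all genes), with a median of 0.07. The risers numbered 0 without WT replicate 2 and 1 without WT replicate 1 or p53- Rb- replicate 1. Fos alone fell without p53- Rb- replicate 1 or 2 or WT replicate 1 or 2. Fos read 123, 135 and 130.2 in p53- Rb- arrays and 299.9, 265 and 245 in WT arrays (-0.97 ± 0.18, adjusted p = 0.000842).

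**Figure D5:**
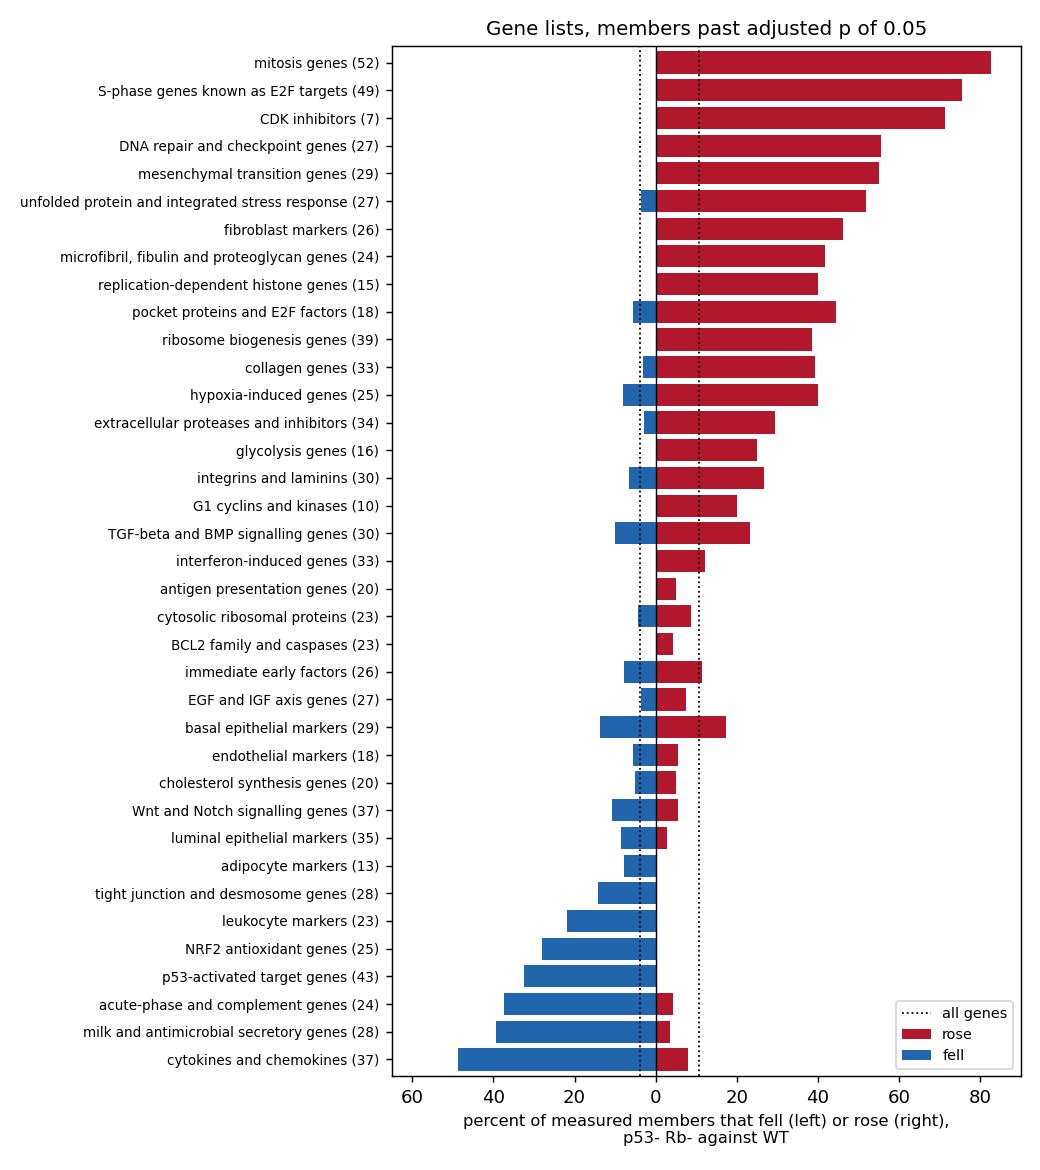
Share of the measured members of each of the 37 gene lists that rose (right) or fell (left) in p53- Rb- against WT arrays, with the number measured in brackets and dotted lines at the shares of all genes (10.8% and 3.75%). Mitosis and S-phase genes lie at the top and cytokines and chemokines at the bottom.

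Where the level was at least that of the median gene and the groups did not overlap, the genes with the largest rises included several outside these lists. D17H6S56E-5 changed most. D17H6S56E-5 intensity was 2131, 2217 and 2146 in p53- Rb- arrays and 213, 188 and 254 in WT arrays. The p53- arrays read 219, 289 and 246, so that the change was 3.23 ± 0.15 against WT (adjusted p = 4.06e-12) and 3.04 ± 0.15 against p53- cells (adjusted p = 2.19e-11). Dgkk, a diacylglycerol kinase gene, was high in p53- Rb- and p53- cells alike. It read 403, 452 and 298 in p53- Rb- arrays, 336, 379 and 455 in p53- arrays and 31.8, 35.8 and 23.3 in WT arrays (3.10 ± 0.20 against WT, adjusted p = 8.42e-10). Plac8, for a small cysteine-rich protein, rose by 2.04 ± 0.16 (adjusted p = 1.4e-08), and Mthfd2, a mitochondrial folate enzyme gene, by 1.93 ± 0.19 (adjusted p = 6.55e-07). Brinp3 rose by 1.85 ± 0.15 (adjusted p = 2.82e-08) and Csrp2, for a LIM domain protein of smooth muscle, by 1.76 ± 0.17 (adjusted p = 2.57e-07).

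Among the lowest of these genes, Lce3c, of the cornified envelope of skin, read 130.2, 106 and 80.5 in p53- Rb- arrays, 205, 193 and 214 in p53- arrays and 1647, 1677 and 1573 in WT arrays (-3.78 ± 0.17 against WT, adjusted p = 2.79e-12). Pglyrp1, which binds bacterial cell walls, changed by -3.55 ± 0.24 (adjusted p = 1.6e-09), the beta-defensin gene Defb14 by -2.84 ± 0.17 (adjusted p = 2.02e-10) and Acod1, which makes itaconate in activated macrophages, by -3.39 ± 0.17 (adjusted p = 1.13e-11). AA467197 changed by -3.16 ± 0.16 (adjusted p = 1.13e-11), the nucleoside transporter gene Slc28a3 by -2.74 ± 0.16 (adjusted p = 2.01e-10) and Psca, a surface antigen gene of epithelia, by -2.40 ± 0.16 (adjusted p = 8.26e-10). For Defb14 and Slc28a3, p53- Rb- and p53- cells did not differ at the threshold (adjusted p = 0.978 and 0.665). Mid1, an X-linked ubiquitin ligase gene, was uneven. Mid1 read 1.87, 6.23 and 135 in p53- Rb- arrays, against 236, 179 and 273 in WT arrays. Replicates 1 and 2 of p53- Rb- were near 0, and replicate 3 was far above them but below the WT arrays. Its change was -2.63 ± 0.45 (adjusted p = 0.000435), or -3.61 without p53- Rb- replicate 3.

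Finally, genes were ranked that passed in the same direction against both WT and p53- cells. Only genes at or above the median level, with no overlap between p53- Rb- and WT arrays, were eligible. The rank was by the smaller of both absolute changes, and the first 8 in each direction are given. The p53- Rb- arrays were used in both contrasts, so the second is no independent repeat of the first. The higher genes were D17H6S56E-5, Car9, Ndufa4l2, Mia, Loxl3, Lsp1, Ptgis and Cspg4. Ndufa4l2, a hypoxia-induced gene for a mitochondrial protein, read 202, 209 and 319 in p53- Rb- arrays, 30.5, 25.4 and 25.9 in p53- arrays and 64.7, 38.9 and 45.8 in WT arrays. It changed by 1.97 ± 0.20 against WT (adjusted p = 6.52e-07) and by 2.56 ± 0.20 against p53- cells (adjusted p = 2.66e-08). Loxl3, a lysyl oxidase of matrix crosslinking, read 401, 389 and 528 in p53- Rb- arrays, 102, 129 and 86.8 in p53- arrays and 117, 89.7 and 127 in WT arrays. Mia, a small secreted protein first found in melanoma, changed by 1.87 ± 0.17 against WT (adjusted p = 1.07e-07), Lsp1, an actin-binding protein, by 1.94 ± 0.20 (adjusted p = 8.63e-07), and Ptgis, prostacyclin synthase, by 1.65 ± 0.23 (adjusted p = 3.43e-05). Cspg4, the NG2 proteoglycan gene of pericytes and progenitor cells, rose by 1.65 ± 0.25 (adjusted p = 0.000142, or 0.0885 with a constant of 1). The lower genes were Csf3, Cxcl2, Cxcl3, S100a8, Mid1, Ivl, Prl2a1 and Bcl2l15. Ivl, involucrin of the cornified envelope, read 57, 61.6 and 83.8 in p53- Rb- arrays, 184, 316 and 176 in p53- arrays and 309, 335 and 390.3 in WT arrays (-2.12 ± 0.21 against WT, adjusted p = 5.64e-07). Bcl2l15, a BCL2 family gene that was not in the list of that family, changed by -2.27 ± 0.18 (adjusted p = 1.75e-08), and the prolactin family gene Prl2a1 by -1.80 ± 0.18 (adjusted p = 4.54e-07).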

How the data were processed

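RNA from 15 samples in 5 groups of 3 was amplified and hybridised to Affymetrix Mouse Gene arrays, per the labels. The deposited values are 1 intensity per probe set and array, for which the submitters' processing notes name Affymetrix Expression Console 1.1. How probes were summarised, and on which scale, is not given in the sources used here. Values ran from 4.11e-05 to 8348.1 and none was below 0, so they were taken as linear and were not normalized again. Of 35556 probe sets, 21789 had 1 gene symbol in the platform annotation, 1621 had several and 12146 were not named. For each of 19938 genes the probe set brightest on average over the 15 arrays was kept (999 genes had more than 1).

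Group means were fitted to log2(intensity + 16) over all 15 arrays with limma 3.58.1 in R 4.3.3, with empirical Bayes variances and Benjamini-Hochberg adjustment over all genes. The steps were tested on simulated data. Precision is limited by the number of arrays. The comparison and the 37 gene lists (1083 entries, 1003 measured) were chosen with earlier results of these data known. Genes were named by rule: Rb1, Myc and the pocket protein, E2F, CDK inhibitor and G1 cyclin genes; among genes that passed, with a mean at or above the median gene and no overlap of arrays, the 14 with the highest and lowest changes and the 8 with the smallest p in each direction; up to 6 members of every other list by p and 3 in the direction fewer took; the 8 in each direction that passed against both WT and p53- cells with the largest smaller change; and the defining cell markers. The genes ranked against both WT and p53- cells also had to meet the conditions on mean and overlap against WT. Promoters came from a RefSeq table of GRCm38.p6, which held 15563 of the genes. Alternatives changed the constant, the normalization, the filter, the arrays used, the weights and the block.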

Additional observations from a re-analysis of the deposited data

How the results depend on the processing

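Of 277 named genes, 209 passed against WT. Of these, 152 passed in every alternative run (up to 17 each), 57 lost the call in at least 1 and 0 reversed, and 34 of the 68 that had not passed did so in at least 1. With a constant of 1 in place of 16, 482 genes fell, and with array weights 5251 changed (3476 rose and 1775 fell) and 8515 differed between p53- Rb- and p53- cells. Leaving out 1 array in turn gave 1696 to 3165 changed genes against WT, of which 1246 to 2176 rose and 406 to 989 fell. It gave 2096 to 4724 genes between p53- Rb- and p53- cells, and 3467 to 6094 between p53- and WT cells. The other settings kept these counts within 1.5 times. The count of risers stayed between 25 and 43 for S-phase genes and between 35 and 49 for mitosis genes, and the count of fallers between 11 and 17 for p53 targets. Same-numbered p53- Rb- and WT arrays did not deviate together (r = -0.019, -0.109 and -0.127 across genes), nor did p53- Rb- and p53- arrays in every pair (0.204, -0.308 and -0.375) or p53- and WT arrays (0.111, -0.12 and 0.025), so the numbers were not taken to pair the samples. With a replicate block 2931 genes changed against WT (2151 rose and 780 fell), 4010 against p53- cells, and 5899 between p53- and WT cells. Low intensities limit what can be read of genes such as Ptprc and Saa1, whose values lie near the low end of the arrays.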
